A study of Drosophila melanogaster with 3 samples.

Results

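The core promoter peaks at single promoters are the Nf-YC binding peaks whose summit, the base of highest enrichment, lay within 100 bp of the nearest start site of a protein-coding transcript. Peaks at head-to-head promoters were left out, that is, those within 500 bp of both start sites of a divergent gene pair whose starts are at most 500 bp apart. The rule used position alone. It kept 1146 of the 7476 reproducible peaks of the study (15.3%, exact 95% interval 14.5 to 16.2%). The window of 100 bp on either side is wider than a core promoter in the strict sense, and 671 of the summits lay within 50 bp.

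The material was whole Drosophila melanogaster embryos of both sexes, pooled, aged 0 to 18 h, from the strain Nf-Yc. This transgenic line stably expresses Nf-YC-eGFP, with the tag at the C terminus of Nf-YC. Chromatin was precipitated with an antibody against GFP, and 3 biological replicates were set against 1 control alignment that they share. All replicates form 1 group, so there is no second genotype, treatment or age to compare, and values from whole embryos mix all cell types and ages present.

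NF-Y is a trimer of the subunits Nf-YA, Nf-YB and Nf-YC. Nf-YB and Nf-YC form a histone-fold pair, and Nf-YA reads the sequence CCAAT, which is ATTGG when read on the opposite strand. The trimer is known as an activator that binds close to start sites and helps keep promoter chromatin open. Core promoters of flies differ in the short elements they carry. Developmental genes often have a TATA box or an initiator, broadly expressed genes often have the DNA replication-related element (DRE) or motif 1, and ribosomal protein genes start in a polypyrimidine initiator.

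The DNA just upstream of the start site is shown first for 7 strong core promoter peaks that had CCAAT within 100 bp of the summit, taken in order of signal. Each line is the 150 bases before the transcription start site (TSS) on the strand of the gene, 5′ to 3′, from the Release 6 genome sequence of RefSeq (dm6), and capitals mark CCAAT or ATTGG. The windows are chr3L:246913-247062 for E(bx), chr3R:21446538-21446687 for lbe, chr2L:9581746-9581895 for gcm, chr3L:11009189-11009338 for klu and chr3R:25740466-25740615 for LpR2, all on the minus strand, and chrX:8906918-8907067 for rdgA and chr3L:749250-749399 for emc on the plus strand. Windows that hold an annotated exon were passed over.
E(bx): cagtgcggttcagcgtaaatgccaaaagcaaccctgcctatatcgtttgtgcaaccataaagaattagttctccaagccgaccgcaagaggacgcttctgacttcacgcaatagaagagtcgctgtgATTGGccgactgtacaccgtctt
lbe: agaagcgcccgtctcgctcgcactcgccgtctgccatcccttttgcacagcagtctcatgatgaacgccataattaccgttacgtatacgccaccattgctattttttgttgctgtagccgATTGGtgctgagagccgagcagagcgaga
gcm: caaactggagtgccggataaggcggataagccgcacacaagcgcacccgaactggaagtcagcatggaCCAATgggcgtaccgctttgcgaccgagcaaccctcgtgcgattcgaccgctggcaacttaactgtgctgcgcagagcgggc
klu: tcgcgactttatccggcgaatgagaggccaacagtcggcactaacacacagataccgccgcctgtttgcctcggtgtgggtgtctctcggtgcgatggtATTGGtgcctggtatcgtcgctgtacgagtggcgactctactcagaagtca
LpR2: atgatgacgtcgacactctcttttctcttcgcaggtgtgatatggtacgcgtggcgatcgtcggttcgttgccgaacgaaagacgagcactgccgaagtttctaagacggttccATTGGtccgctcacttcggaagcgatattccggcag
rdgA: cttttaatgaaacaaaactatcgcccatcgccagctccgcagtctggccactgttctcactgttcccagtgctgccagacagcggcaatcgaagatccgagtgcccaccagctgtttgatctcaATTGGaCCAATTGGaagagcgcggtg
emc: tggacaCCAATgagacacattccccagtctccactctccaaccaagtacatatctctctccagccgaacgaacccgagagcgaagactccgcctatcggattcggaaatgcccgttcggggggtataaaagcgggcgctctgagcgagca

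The motif lay on either strand and at no fixed distance from the start. Counted with the TSS as 0, its first base was at -23 in E(bx), -29 in lbe, -82 in gcm, -51 in klu, -36 in LpR2 and -144 in emc. The rdgA promoter held 3 overlapping or adjacent copies, starting at -26, -20 and -17. The summits were at -58, -29, -83, -88, -66, -46 and -74 bp in E(bx), lbe, gcm, klu, LpR2, emc and rdgA, so the motif and the summit coincided within 1 bp at lbe and gcm. The summit of rdgA, which encodes a diacylglycerol kinase of the photoreceptor, had a signal of 6320. That of emc, which encodes a helix-loop-helix protein that inhibits other such proteins, had 4194. Among the peaks down to that of emc, those at Xbp1, slgA, pb, Sik3 and Gk2 also had CCAAT near the summit and are not printed. The windows of slgA and Gk2 hold an annotated exon, and in pb the CCAAT lay after the TSS.

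Other elements are shown at strong peaks picked to have a DRE or motif 1 in the same upstream window and no CCAAT within 100 bp of the summit. Here capitals mark the DRE, TATCGATA, in eEF1gamma and mod(mdg4), and motif 1, GGTCACAC, in Mer and CSN6. The windows are chr3R:29220022-29220171 for eEF1gamma and chr3R:22580623-22580772 for CSN6 on the plus strand, and chr3R:21377402-21377551 for mod(mdg4) and chrX:19693501-19693650 for Mer on the minus strand, from the same sequence.
eEF1gamma: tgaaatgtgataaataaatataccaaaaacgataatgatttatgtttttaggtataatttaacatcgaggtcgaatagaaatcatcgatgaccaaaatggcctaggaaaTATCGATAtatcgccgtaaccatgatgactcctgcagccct
mod(mdg4): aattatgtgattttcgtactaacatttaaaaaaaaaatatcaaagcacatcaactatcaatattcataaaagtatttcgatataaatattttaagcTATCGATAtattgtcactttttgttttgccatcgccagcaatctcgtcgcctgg
Mer: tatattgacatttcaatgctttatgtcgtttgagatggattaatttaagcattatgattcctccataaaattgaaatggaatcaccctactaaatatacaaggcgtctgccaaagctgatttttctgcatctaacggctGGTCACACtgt
CSN6: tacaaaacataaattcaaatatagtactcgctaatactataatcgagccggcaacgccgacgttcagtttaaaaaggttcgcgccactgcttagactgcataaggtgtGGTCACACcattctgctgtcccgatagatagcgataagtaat

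These genes encode a subunit of translation elongation factor 1, a chromatin protein of insulator complexes, the fly homologue of the tumour suppressor Merlin and a subunit of the COP9 signalosome. The element began at -41 in eEF1gamma, -54 in mod(mdg4), -11 in Mer and -42 in CSN6. The summits of these peaks were at -19, -54, 90 and -90 bp in the same order, so at Mer the summit lay after the TSS. Their signals of 1017, 847, 804 and 664 were all above the median of the core promoter peaks. The CCAAT examples were taken from the strongest peaks, so these examples do not compare strength between elements.

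Most summits lay upstream of the start site, spread over the window. The median position was -17 bp, with quartiles of -58 and 27 bp. It was -30 and -30.5 bp in the smaller sets kept without replicate 1 or 2, which asked for a rank of at most 7476 in the remaining lists, and -18 bp without replicate 3. Of the 1146 summits, 714 were upstream of the TSS (62.3%, exact 95% interval 59.4 to 65.1%), 7 were on it and 425 were downstream. The rule fixed the outer limits, so only the shape inside them is a measurement. Counts were level from -100 to -21 bp, at 133 to 140 per 20 bp. They reached 173 from -20 to -1 bp and 133 from 20 to 39 bp, with fewer in the 20 bp between. Beyond 39 bp they were 77, 70 and 51 in successive bins. The distribution did not end at the limit, since 182 summits lay 81 to 100 bp from the TSS and 187 summits of single promoters lay in the 20 bp beyond the limit.

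**Figure D1:**
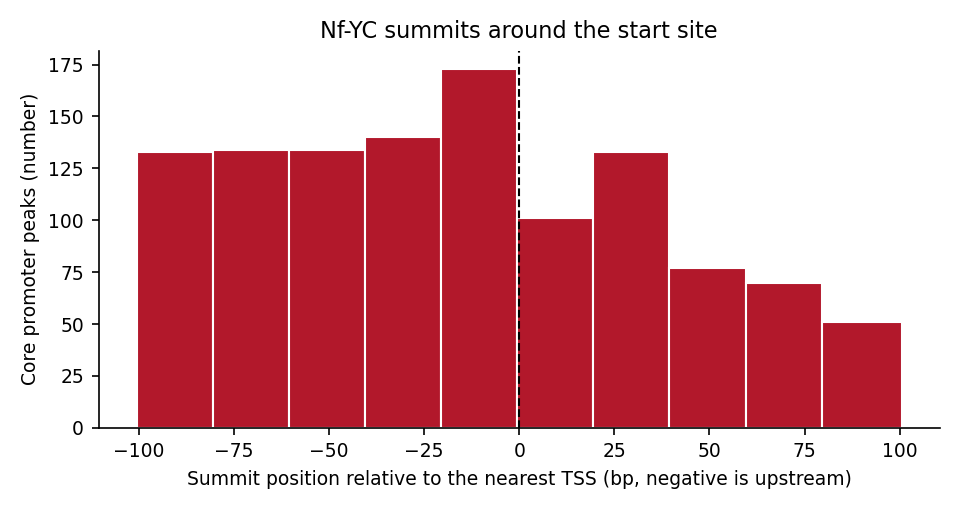
Number of core promoter peaks (y axis) by position of the summit relative to the nearest TSS (x axis, bp, negative is upstream), in bins of 20 bp. The highest bar, 173 peaks, lies just before the TSS, and the lowest, 51 peaks, lies 80 to 100 bp after it.

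At the upper edge of the window, RpL11, a ribosomal protein gene on 2R, and CG3777 on X each had a summit exactly 100 bp upstream, with signals of 1009 and 957. Just outside, the mesoderm regulator twi on 2R and the eye development gene eya on 2L each had one that missed the limit by 1 bp, with signals of 10185 and 4805.

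The replicate lists placed the summits alike in direction but not in degree. Among the 7476 strongest peaks of each replicate, the share of core promoter summits upstream of the TSS was 58.0% in replicate 1, 61.7% in replicate 2 and 74.0% in replicate 3 (64.6 ± 8.41%, SD, n = 3). Replicate 3 stood apart. Among the 858 core promoter peaks found in all replicate lists, the median position was -18 bp in replicate 1, -21 bp in replicate 2 and -32 bp in replicate 3. In 348 of these 858 (40.6%) the summit of replicate 3 was the furthest upstream of the 3, and in 239 (27.9%) it was the furthest downstream. Summit positions are also limited by the peak calls themselves. The most common width was 480 bp, held by 365 core promoter peaks (31.8%), and in 373 (32.5%) the summit lay within 1 bp of the middle of the peak.

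By annotation, 502 summits (43.8%) lay outside protein-coding transcripts, 481 (42.0%) in a 5′ UTR and 150 (13.1%) in an intron. Another 9 were in a 3′ UTR and 4 in a coding exon. By chromosome arm, 183 lay on 2L, 265 on 2R, 245 on 3L, 262 on 3R, 10 on 4 and 181 on X. In 1120 peaks a single gene had a TSS within 100 bp of the summit, in 23 there were 2 genes, and in 3 there were 3. Together 1134 genes had a core promoter peak, which is 8.13% of the 13945 protein-coding genes and 10.4% of the 10130 single promoter genes when the 1058 of that kind are counted. The remaining 76 genes had a head-to-head start site elsewhere.

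Core promoter peaks were weak beside peaks a little further upstream, and close to those on the downstream side. Strength is the signal value of the authors' peak caller, a score without a stated unit, and is compared only within a list. The median signal was 387 at core promoters (quartiles 304 and 575), against 569 at the 1493 peaks lying over 100 and up to 500 bp upstream of a single promoter. Among the strongest 25% of the whole set were 151 of 1146 core promoter peaks (13.2%), against 537 of 1493 upstream peaks (36.0%). The odds ratio was 0.270 (95% interval 0.221 to 0.330, two-sided Fisher's exact test, Benjamini-Hochberg adjusted p = 3.68e-41). The 282 peaks over 100 and up to 500 bp downstream of a TSS had a median signal of 395, with 13.5% in the strongest 25%. Peaks, not embryo collections, are the units of this and the later tests. The gap was present in each replicate list. In lists 1, 2 and 3 the share was 14.3, 12.7 and 12.5% for core promoter peaks and 35.6, 37.9 and 33.4% for upstream peaks. The means were 13.2 ± 0.998% at core promoters and 35.6 ± 2.26% upstream (SD, n = 3), and the ranges did not overlap. Core promoter peaks had a median width of 440.5 bp, against 480 bp upstream.

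**Figure D2:**
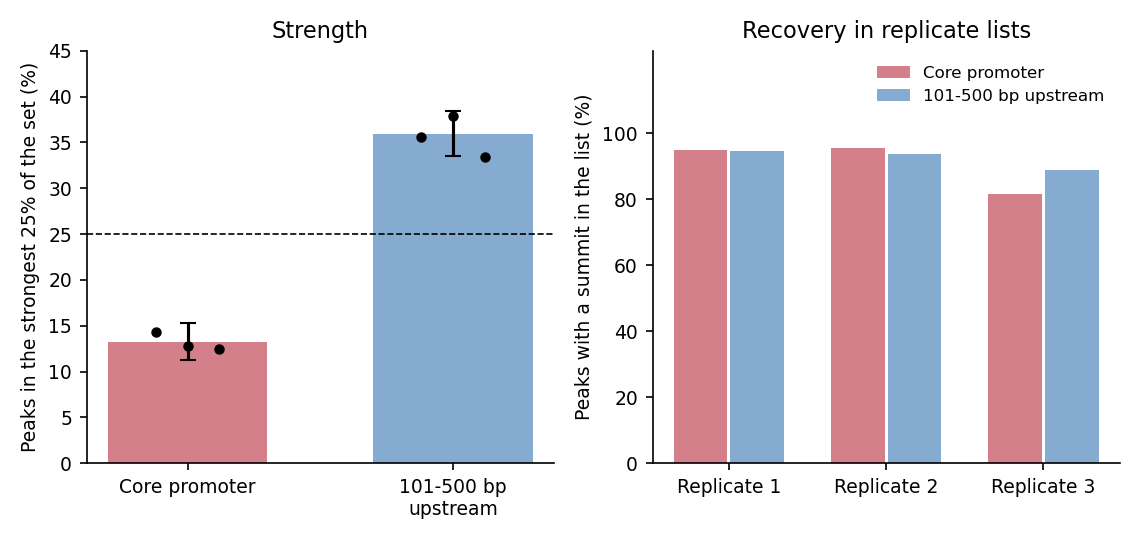
Left, percentage of peaks (y axis) in the strongest 25% of the set for core promoter peaks and for peaks over 100 and up to 500 bp upstream, with exact 95% intervals, each of the 3 replicate lists, ranked on its own, as a point and the 25% of all peaks as a dashed line. Right, percentage of these peaks (y axis) with a summit within 100 bp in each replicate list, where replicate 3 gives 81.5% for core promoters and 88.7% upstream.

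The range of strengths was wide, however, and a small number of core promoter peaks were among the strongest of the study. Signals ran from 246 to 38861. The top was E(bx), which encodes the large subunit of the nucleosome remodelling factor NURF. Its peak on 3L (245977 to 247761) ranked 15 in the whole set, with a signal of 38861 and of 17186, 11652 and 10283 in replicates 1, 2 and 3. The homeobox gene lbe on 3R (21445988 to 21447089), which patterns muscle and heart precursors, followed with 34796 and with 14724, 10424 and 9718 in the replicates. In both, replicate 1 was highest and replicate 3 lowest, but the scale of the signal differs between lists.

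Below them came 3 genes of the segmentation and Hox list and other regulators of development. The pair-rule gene odd on 2L (3606196 to 3607376) had a signal of 15597 at -42 bp, with 7202, 5156 and 3275 in replicates 1, 2 and 3. The Hox gene lab on 3R (6678287 to 6678945) had 10035 at -93 bp, with 3843, 2968 and 3244. The Hox gene pb on 3R (6741377 to 6742655) had 7064 at -41 bp, with 3856, 2053 and 1138. Neither odd nor lab had CCAAT within 100 bp of the summit, although they were among the 5 strongest. The glial fate regulator gcm on 2L (9581332 to 9582427) had 9035, with 4369, 3308 and 1407. The zinc-finger gene klu on 3L (11008615 to 11009984) had 8753, with 3968, 2600 and 2157.

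The top 10 also held Xbp1, slgA and LpR2. Xbp1 on 2R (21143045 to 21144119), which encodes a transcription factor that answers unfolded proteins, had 11058 at -45 bp, with 5208, 3387 and 2546 in replicates 1, 2 and 3. The proline oxidase gene slgA on X (21373451 to 21374587) had 7942 at 32 bp, inside its 5′ UTR, with 3594, 2575 and 1808. The lipophorin receptor gene LpR2 on 3R (25740074 to 25740862) had 7365 at -66 bp, with 3186, 2169 and 2056. Every one of these 10 peaks was found in all replicate lists, and 9 of the 10 summits lay upstream of the TSS.

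At the weak end signals were close to each other. The smallest signals were 246.6 at CG42258, 246.3 at the hexosaminidase gene Hexo1 and 246.2 at Pdcd4. In replicates 1, 2 and 3 the signal was 103, 108 and 25.3 at CG42258 and 131, 128 and 16.1 at Pdcd4. Hexo1 had no summit within 100 bp in replicate 1, and had 92.0 in replicate 2 and 38.9 in replicate 3. Signals of replicate 3 were lower in general, with a median of 87.6 over core promoter peaks, against 187 in replicate 1 and 149 in replicate 2.

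How often core promoter peaks were found again depended on how a match was asked for. A summit lay within 100 bp in all 3 full lists for 858 of 1146 core promoter peaks (74.9%), against 1193 of 1493 upstream peaks (79.9%), with 185 of 282 downstream peaks (65.6%) and 80.9% over the whole set. The odds ratio was 0.749 (95% interval 0.623 to 0.900, Fisher's exact test, adjusted p = 0.00360). With a match within 50 bp these counts were 512 core promoter and 808 upstream peaks (odds ratio 0.685), and among the strongest 7476 of each list they were 526, or 45.9%, and 914 (0.537), and both passed the exact test. The difference came with replicate 3. That list held 81.5% of core promoter peaks and 88.7% of upstream peaks, whereas replicate 1 held 95.03 and 94.6% and replicate 2 held 95.5 and 93.7%. Presence in replicates 1 and 2 with absence from replicate 3 was seen for 187 core promoter peaks (16.3%) and 142 upstream peaks (9.51%). When only the full lists of replicates 1 and 2 were asked for, the odds ratio turned to 1.22 (exact test, adjusted p = 0.244). Within the weaker 75% of the set it was 1.04 (exact test, adjusted p = 0.688), so the call did not hold where strong peaks were set aside. It was also lost with 1 TSS per gene, at 0.803 (exact test, adjusted p = 0.0652), and in the upper 50% of the set, at 0.719 (adjusted p = 0.0933).

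Of the remaining core promoter peaks, 257 were in exactly 2 lists, 29 in 1 and 2 in none. Where a replicate had a summit, it lay a median of 17, 16.5 and 26 bp from that of the set in replicates 1, 2 and 3. It was within 100 bp of the same TSS in 89.4, 90.6 and 86.1% of cases. RpL11 is an example at the edge, with a summit within 100 bp in replicate 2 alone, where its signal was 400.3.

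CCAAT, read on either strand, lay within 100 bp of 430 of the 1146 core promoter summits (37.5%, exact 95% interval 34.7 to 40.4%), against 598 of 1493 upstream summits (40.1%) and 38.1% over the whole set. The odds ratio was 0.899 (95% interval 0.767 to 1.05, Fisher's exact test, adjusted p = 0.247), so a lower odds by up to the factor 0.767 is within the interval. With the search narrowed to 50 bp from the summit the odds ratio was 0.818 (exact test, adjusted p = 0.0430). Set against promoters with no peak, the result depended on the peaks kept. From 100 bp before to 100 bp after the TSS it was in 415 of 1145 core promoter start sites (36.2%). It was in 2644 of 7522 single promoters with no summit of the thresholded set within 1000 bp (35.2%). That odds ratio was 1.05 (95% interval 0.921 to 1.19, exact test, adjusted p = 0.486). Among all protein-coding genes the share was 34.3%. The comparison passed in the smaller sets kept without replicate 1, 2 or 3, at 1.26, 1.37 and 1.20 (exact test, adjusted p = 0.00860, 0.000699 and 0.0256). It also passed within 50 bp of the TSS, at 1.18 (exact test, adjusted p = 0.0483). Some promoters without a thresholded summit had one in the full pooled list. Against the 5714 single promoters with no summit in that list either, the odds ratio was 1.01 (exact test, adjusted p = 0.893).

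The motif was more frequent at the strong core promoter peaks. CCAAT was near 144 of the 286 strongest core promoter summits (50.3%), against 97 of the 286 weakest (33.9%), an odds ratio of 1.98 (95% interval 1.41 to 2.77, Fisher's exact test, adjusted p = 0.000236). The middle groups of 286 had 33.2 and 32.9%. In 10 groups of equal size from the strongest down, the share was 61.7, 49.1, 33.9, 32.5, 31.3, 37.4, 28.1, 32.2, 36.8 and 32.2%, so the excess lay in the first 2 groups. In the replicates' own lists the strongest 25% of core promoter peaks had 47.2, 43.8 and 47.6% and the weakest had 32.1, 31.5 and 31.9%. The means were 46.2 ± 2.07% in the strongest and 31.8 ± 0.276% in the weakest 25% (SD, n = 3). The call was lost in the smaller set kept without replicate 2, where the odds ratio was 1.40 (exact test, adjusted p = 0.257). Upstream peaks gave 50.4% in their strongest and 37.5% in their weakest 25%.

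**Figure D3:**
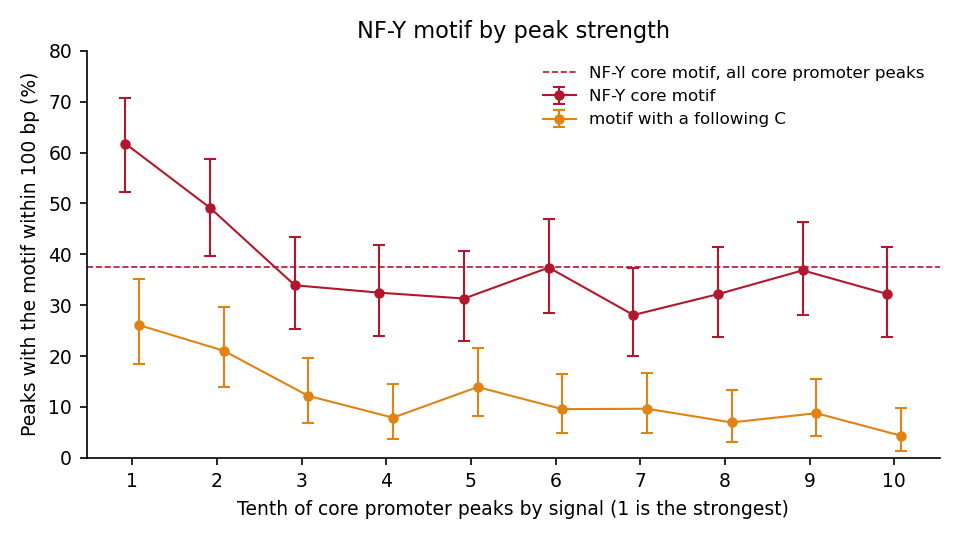
Percentage of core promoter peaks (y axis) with CCAAT, and with CCAAT followed by C, within 100 bp of the summit, in 10 equal groups by signal (x axis, strongest on the left), with exact 95% intervals. The CCAAT share is 61.7 and 49.1% in the first 2 groups and 28.1 to 37.4% in the others, around the dashed line of 37.5% for all core promoter peaks.

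Set against promoters with no peak, the strongest 25% of core promoter peaks also had more CCAAT around the TSS, with an odds ratio of 1.77 (Fisher's exact test, adjusted p = 7.20e-06, a comparison added after the data were seen). The upper 50% of the set gave 1.49 (exact test, adjusted p = 0.000127). The base after the motif differed too. CCAAT followed by C was near 60 of the 286 strongest summits (21.0%) and 18 of the 286 weakest (6.29%), with 11.5 and 9.44% in the middle groups. The odds ratio was 3.95 (Fisher's exact test, adjusted p = 8.38e-07, also added after the data were seen). The adjustment does not cover a choice of this C among the flanking bases listed below, counted in the same peaks. In the replicates' own lists the strongest 25% had 21.9, 17.1 and 17.7% and the weakest had 9.81, 8.41 and 11.8%, without overlap. For the other bases at that place the strongest and weakest 286 had 9.44 and 7.69% for A, 11.5 and 10.5% for G, and 16.1 and 13.99% for T. For the base before the motif they had 22.0 and 12.6% for A, 16.4 and 6.99% for T, 10.1 and 6.99% for C, and 12.9 and 13.3% for G. The shares for these other flanking bases were not tested.

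Copies were more numerous in strong peaks and lay on both strands. The strongest 286 peaks held 193 copies, 94 on the strand of the gene and 99 on the other, and the weakest held 127, 67 and 60. Peaks with at least 2 copies numbered 42 in the strongest and 24 in the weakest 286. Copies before the TSS numbered 124 and 72, and those within 50 bp before it 58 and 29. Within 50 bp of the summit there were 105 copies in the strongest and 61 in the weakest 286, against 88 and 66 at 51 to 100 bp. The strongest peaks also lay further upstream, with a median position of -29.5 bp, against -21, -12.5 and -5 bp in the groups of 286 that followed.

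Elements typical of broadly expressed genes were more frequent at core promoter peaks than at upstream peaks or promoters with no peak. The DRE, TATCGATA, bound by the factor DREF, was within 100 bp of 133 of 1145 TSSs (11.6%), against 72 of 1384 TSSs of upstream peaks (5.20%), 4.25% of promoters with no peak and 7.84% of all promoters. The odds ratio was 2.39 against upstream peaks (95% interval 1.78 to 3.23, Fisher's exact test, adjusted p = 1.17e-08) and 2.96 against promoters with no peak (95% interval 2.39 to 3.66, adjusted p = 7.30e-20). Motif 1, GGTCACAC, bound by M1BP, was at 129 TSSs (11.3%), against 5.27% for upstream peaks, 3.46% with no peak and 6.76% of all. Its odds ratios were 2.28 (exact test, adjusted p = 7.43e-08) and 3.55 (adjusted p = 1.48e-24). With core promoter peaks at head-to-head promoters kept, 242 of 1780 TSSs had a DRE and 213 had motif 1. The odds ratios against the same 7522 single promoters with no peak were then 3.54 and 3.80. Head-to-head promoters with no peak were not counted, so these ratios cannot show whether head-to-head promoters share the excess. By strength, the strongest 25% of core promoter peaks had a DRE in 10.5% and the weakest in 10.5%, and for motif 1 these were 6.99 and 11.9%. These elements, the E-box and GAGAG were searched on both strands from 100 bp before to 100 bp after the TSS.

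A DRE or motif 1 was at 245 core promoter TSSs (21.4%), against 560 of 7522 promoters with no peak (7.44%), and both were at 17. CCAAT was near the TSS in 100 of these 245 (40.8%) and in 315 of the 900 others (35.0%). In a separate count over the 1146 peaks, no CCAAT, DRE or motif 1 was found at 120 of the 286 strongest, 152 of the 286 weakest and 570 in all (49.7%). That count does not follow from the counts by TSS given before it. The E-box CAGCTG was at 17.8% of core promoter TSSs, 12.9% for upstream peaks, 10.6% with no peak and 13.8% of all. Its odds ratios were 1.47 (exact test, adjusted p = 0.000915) and 1.82 (adjusted p = 6.50e-11). The first of these did not pass in the upper 50% of the set, at 1.18 (exact test, adjusted p = 0.369), nor in the set kept without replicate 1, at 1.30 (adjusted p = 0.0978).

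GAGAG, the core of the GAGA factor site, was at 32.8% of core promoter TSSs, against 41.4% for upstream peaks (odds ratio 0.692, exact test, adjusted p = 1.56e-05), 22.3% with no peak (1.70, adjusted p = 1.76e-13) and 22.4% of all. The initiator, TCAGT or TCATT on the strand of the gene with its A within 3 bp of the TSS, was at 12.7%, against 19.9% for upstream peaks (0.582, exact test, adjusted p = 1.72e-06), 10.7% with no peak (1.21, adjusted p = 0.0556) and 9.56% of all. TATAAA on the strand of the gene from -45 to -20 bp was at 3.23%, against 3.97% for upstream peaks (0.807, exact test, adjusted p = 0.339), 12.5% with no peak (0.233, adjusted p = 1.21e-24) and 8.81% of all. The polypyrimidine initiator, CTTTT or CTTTC on that strand with its C within 3 bp of the TSS, was at 3.41%, against 2.31% for upstream peaks (1.49, exact test, adjusted p = 0.124), 1.95% with no peak (1.77, adjusted p = 0.00371) and 1.99% of all. Its call against promoters with no peak was lost with 1 TSS per gene, at 1.37 (exact test, adjusted p = 0.215), and in the sets kept without replicate 1 or 2, at 1.64 and 1.62 (adjusted p = 0.0773 and 0.0747). These windows differed in base composition, with a GC content of 45.1% at core promoter TSSs, 46.8% at those of upstream peaks and 41.7% with no peak, and its part in the differences was not tested. All p-values are from two-sided Fisher's exact tests, adjusted over the 14 tests of this kind. None of the patterns contains another, and a match of letters is not a bound site.

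**Figure D4:**
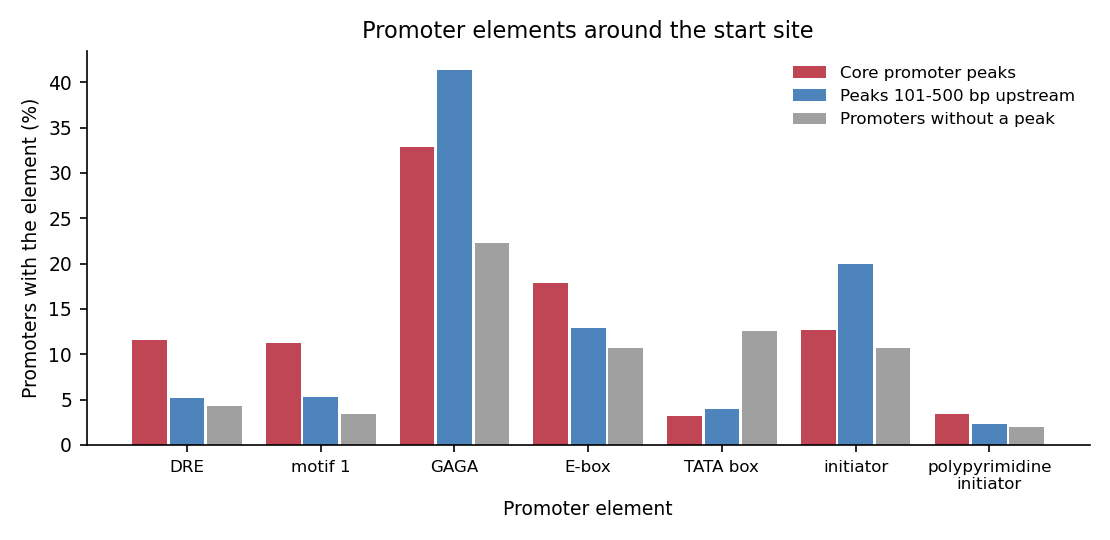
Percentage of TSSs (y axis) with each of 7 promoter elements (x axis) at core promoter peaks, at peaks over 100 and up to 500 bp upstream and at single promoters with no thresholded summit within 1000 bp. The DRE and motif 1 are at 11.6 and 11.3% for core promoter peaks, against 5.20 and 5.27% upstream, while the initiator is at 12.7%, against 19.9% upstream.

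The genes behind the peaks are described by lists and read against the 8.13% of all protein-coding genes, with no test, because the lists were chosen with earlier results of these data known. Cytosolic ribosomal proteins stood highest among the large lists. A core promoter peak was found for 31 of 93 (33.3%), and these are 31 of the 56 that have a single promoter (55.4%, against 10.4% of all single promoter genes). Their median signal was 503, against 387 for all core promoter peaks, but 4 of the 32 peaks were in the strongest 25% of the set. CCAAT was near 15 of the 32 summits, 23 were found in all replicate lists, and the TSS had a DRE in 7, motif 1 in 6 and a polypyrimidine initiator in 9. The strongest were RpL11 with a signal of 1009, RpL23A with 1004 and RpL24 with 919. RpL23A had 378, 348 and 300 in replicates 1, 2 and 3 and RpL24 had 399, 308 and 202, neither with CCAAT at the summit. For mitochondrial ribosomal proteins the count was 2 of 73 (2.74%), mRpL13 and mRpL19. Of these genes 20 have a single promoter, and the 2 with a peak are 10% of them, near the background of 10.4%.

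Translation factors were also above the background. Of 52 initiation and elongation factors 12 had a core promoter peak (23.1%, and 34.4% of the 32 with a single promoter), with a median signal of 496 and CCAAT at 1 of the 12 summits. The helicase gene eIF4A led with 1778, and with 878, 554 and 358 in replicates 1, 2 and 3, followed by eEF1gamma with 1017 and eIF2A with 764. Of 32 aminoacyl-tRNA synthetases AlaRS had one (3.12%), which is 8.33% of the 12 with a single promoter.

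Segmentation and Hox genes formed a small but strong group. Of 34 genes, 7 had a core promoter peak (20.6%), namely Antp, Kr, hry, lab, odd, pb and run, and their median signal was 3362. Of these 7 peaks, 5 were in the strongest 25% of the set, 6 in all replicate lists, 2 had CCAAT near the summit and 0 had a DRE or motif 1. Nearly the whole list, 33 of 34, had a summit within 500 bp of a TSS, against 4265 of all 13945 protein-coding genes. For most of the list the peaks thus lay outside the core window.

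Lists of chromatin regulators stood above the background. Among architectural and core promoter factors, proteins that bind insulators and promoters, 6 of 18 had a core promoter peak (33.3%), which were BEAF-32, CTCF, Chro, lola, mod(mdg4) and psq. Only 2 of these 6 peaks were in all replicate lists. In replicates 2 and 3, mod(mdg4) had 248 and 218 and Chro 491 and 473, and both lacked a summit within 100 bp in replicate 1. CTCF had 288, 222 and 118 in replicates 1, 2 and 3. Among Polycomb and trithorax group genes, which maintain silent and active states, 5 of 29 had a core promoter peak (17.2%), all of them in all replicate lists. Scm had a signal of 594, the remodeller gene kis 553 and Pc 415. Of 38 RNA polymerase II and general factors 5 did (13.2%), among them Polr2F with 713, TfIIA-S with 517 and Tbp, which encodes the TATA-binding protein, with 304.

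**Figure D5:**
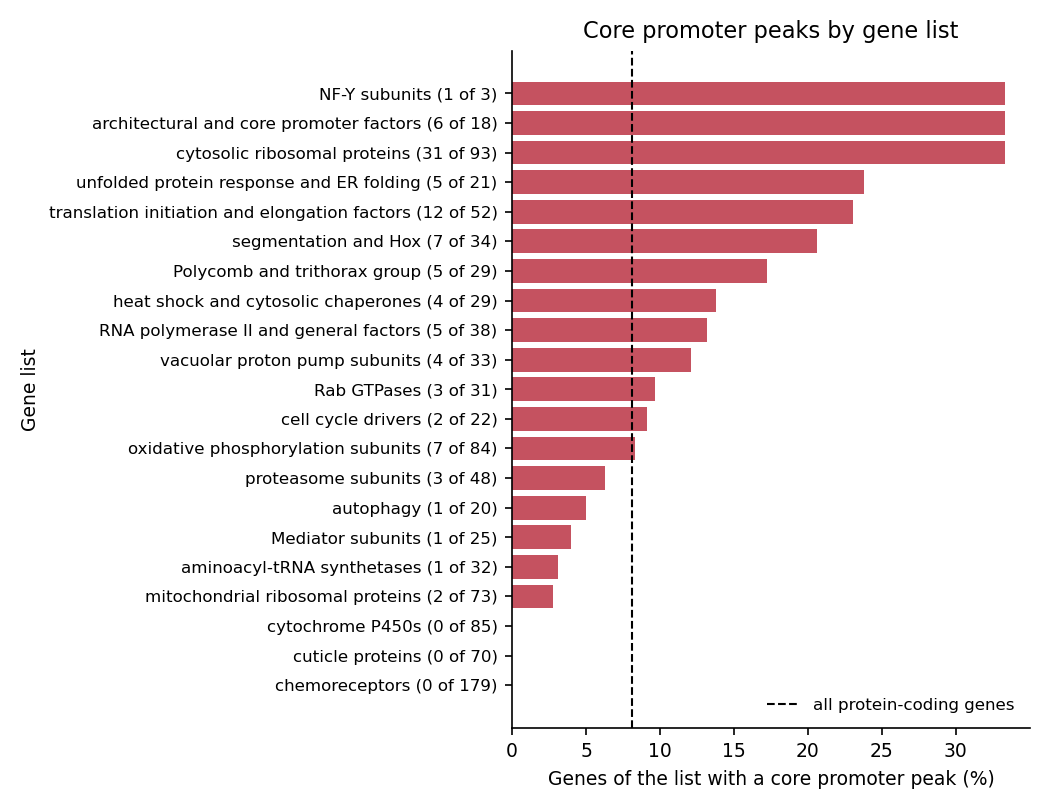
Percentage of the genes of each list (x axis) with a core promoter peak, for 21 lists (y axis, with the number of genes), and a dashed line at 8.13% for all protein-coding genes. Cytosolic ribosomal proteins are at 33.3%, mitochondrial ribosomal proteins at 2.74%, and chemoreceptors, cuticle proteins and cytochrome P450s at 0.

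Protein folding and turnover gave mixed counts over all genes. Of 21 genes of the unfolded protein response and folding in the endoplasmic reticulum 5 had a core promoter peak (23.8%). After Xbp1 came PEK, a kinase that senses unfolded proteins, with 866 at 24 bp inside its 5′ UTR and with 436, 304 and 128 in replicates 1, 2 and 3, and Der-1, a gene of protein export for degradation, with 409. Of 29 heat shock and cytosolic chaperone genes 4 did (13.8%), Hsp26 with 467, Hsp110 with 352, Hsc70-4 with 342 and Hsp23. Proteasome subunits had 3 of 48 (6.25%), Prosbeta7 with 625, Rpn12 with 401 and Prosalpha5 with 284. Autophagy genes had 1 of 20, Atg14. Among single promoter genes the shares were 38.5% of 13 for the unfolded protein response list and 13.6% of 22 for chaperones. They were 12.5% of 24 for proteasome subunits and 12.5% of 8 for autophagy genes. These shares stand beside 10.4% of all single promoter genes, rest on few genes and were not tested.

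Energy and trafficking genes were close to the background over all genes. Among single promoter genes their shares were higher than 10.4%, but they rest on 3 to 7 genes each and were not tested. Oxidative phosphorylation subunits had 7 of 84 (8.33%, and 15.6% of those with a single promoter), led by ATPsynO with 509, ND-B22 with 436 and UQCR-14 with 413. Vacuolar proton pump subunits had 4 of 33 (12.1% and 20%), led by VhaPPA1-1 with 564, Vha16-1 with 496 and VhaSFD with 370. Rab GTPases had 3 of 31 (9.68% and 17.6%), Rab32 with 327, Rab1 with 272 and Rab11 with 251. Cell cycle drivers had 2 of 22 (9.09% and 6.67%), Dp and polo, and Mediator subunits 1 of 25 (4% and 12.5%), MED15. No core promoter peak was found for 179 chemoreceptors, 70 cuticle proteins or 85 cytochrome P450s, families used mainly in sensory organs, skin or detoxification.

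Of the genes for NF-Y itself, Nf-YA on 3L had a core promoter peak (9442188 to 9442425) and the other two subunit genes did not. Its summit lay 31 bp upstream, with CCAAT nearby, and within 100 bp of a TSS of Bet3 as well. The signal was 408, near the median, with 152, 152 and 106 in replicates 1, 2 and 3.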

How the data were processed

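Each replicate list and a list from the pooled replicates held 30000 peaks, and per the labels and the deposited notes peaks were called against 1 control alignment on build dm6. The thresholded set of 7476 peaks was made by irreproducible discovery rate from the 3 replicate lists and the pooled list. It is identical to the strongest 7476 of the pooled list. For the aligner, the caller and the threshold no name or value is given in the sources used. The signal value is a score in the deposited lists, with no stated unit and no scaling between lists. The files hold no read counts, so the depth of each replicate is unknown and intervals cover counting of peaks only.

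Summits were placed by the TSSs of 30748 protein-coding transcripts (Ensembl release 115, BDGP 6.54) on 6 chromosome arms, and sequences were read from the RefSeq Release 6 genome. Unbound promoters, also called promoters with no peak, were the most upstream TSS of 7522 single promoter genes with no thresholded summit within 1000 bp. Shares were compared by two-sided Fisher's exact tests with Benjamini-Hochberg adjustment, over 5 tests between peak classes and over 14 tests of elements, at an adjusted p of 0.05 (scipy 1.17.1, numpy 2.4.6, Python 3.11.15). Peaks are not independent biological replicates. The replicates are described as separate biological replicates in the labels, and their spread is given as mean ± SD over the 3 lists, each taken to its strongest 7476 peaks. The script was tested on simulated data. The members and the gene lists were chosen with earlier results of these data known. Genes named are the 10 strongest and 3 weakest core promoter peaks, 2 just inside and 2 just outside 100 bp, the 3 strongest for each list with at least 3 genes, and the NF-Y subunits. Further list members, Sik3 and Gk2 were named after their values were seen, as were the examples with a DRE or motif 1.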

Additional observations from a re-analysis of the deposited data

How the results depend on the processing

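No paired analysis was possible because the 3 replicates form 1 group and no test compares samples. The number of core promoter peaks was 671 with a window of 50 bp, 1781 with head-to-head promoters kept and 427 in the upper 50% of the set. It was 574 to 792 in the sets kept without 1 replicate, which asked for a place among the strongest 7476 of both other lists and held 4674, 4652 and 5321 peaks. The number of genes with a core promoter peak was 674, 1894 and 426 under the same settings, and 578 to 796 without 1 replicate. The median summit position was -37 bp with a window of 150 bp, -6 bp with 50 bp, -30 bp in the upper 50% and -30.5 to -18 bp without 1 replicate. The lower share of core promoter peaks in the strongest 25% kept its call under all 8 alternatives. The odds ratio for presence in all replicate lists was 0.803 with 1 TSS per gene, 0.719 in the upper 50% of the set and 1.04 in the weaker 75%, and 0.653 to 1.22 when each replicate was left out and both other full lists were asked for. The stricter way of leaving out a replicate gave no value here, since all peaks kept were in both lists by construction. The odds ratio for CCAAT at the summit against upstream peaks was 0.818 within 50 bp of the summit, 1.13 in the upper 50% and 0.948 to 1.07 without 1 replicate. That for CCAAT at the TSS against promoters with no peak was 1.49 in the upper 50%, 1.18 within 50 bp, 0.988 within 150 bp, 0.977 with a window of 150 bp, 1.77 for the strongest 25% and 1.20 to 1.37 without 1 replicate, where all 3 passed. That for CCAAT in strong against weak core promoter peaks was 1.40 to 2.08 without 1 replicate. The DRE and motif 1 comparisons kept their calls under all 8 alternatives, as did those of GAGAG and of the E-box and TATAAA against promoters with no peak. The initiator against promoters with no peak turned to 0.968 with 1 TSS per gene and 0.888 with head-to-head promoters kept, and passed with windows of 50 bp, at 1.29, and 150 bp, at 1.30. TATAAA against upstream peaks passed without replicate 2, at 0.495, and the polypyrimidine initiator against upstream peaks with a window of 50 bp, at 1.94. In each case the cause was not tested. The unknown depth limits what the absence of a peak from a replicate list can show.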

Other observations

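The genes nearest to core promoter peaks were longer than those of promoters with no peak and shorter than those of upstream peaks. Their median length was 4979 bp (1107 genes), against 7130 bp for the 1274 genes nearest to upstream peaks, 1771 bp for the 7522 single promoter genes with no peak and 2145 bp for all 10130 single promoter genes. More than 1 TSS position was annotated for 53.0% of them, against 52.4% for upstream peaks, 18.1% with no peak and 24.8% of all. A gene with more start sites has more chances of a summit within 100 bp of one, and its part in these shares was not tested.

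Some core promoter peaks had a further summit of the set nearby. Another thresholded summit lay within 500 bp of 229 core promoter summits (19.98%). Of the core promoter peaks, 99 shared their bounds with another peak of the set, so these are separate summits within the same called region. The matching shares over the whole set were not counted. A summit inside the gene and over 500 bp from its TSSs was found for 301 of the nearest genes (27.2%), against 418 of those of upstream peaks (32.8%), and 218 genes were nearest to both a core promoter and an upstream peak. For 46 core promoter peaks (4.01%) and 64 upstream peaks (4.29%), a noncoding transcript on the opposite strand started at most 500 bp upstream of the nearest TSS. On X lay 15.8% of core promoter peaks, against 19.5% of upstream peaks and 16.1% of single promoter genes. None of these differences was tested.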
